A study of Mus musculus with 48 samples.

Results

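Untreated alveolar type II cells (AECII) and untreated pulmonary artery smooth muscle cells (PASMC) of C57Bl/6J mice were compared on Agilent expression arrays. The arrays were chosen by their titles alone, 8 of AECII control and 8 of PASMC control, which makes 16 of the 48 arrays of the series. The other 32 hold the same cells after exposure to an extract of e-cigarette vapour. The AECII were plated at 300000 cells per well of a 24-well plate in DMEM with 10% serum. The PASMC lay undisturbed for 5 days, were freed of iron particles, and were passaged to passage 1 in smooth muscle medium with 15% serum. Control cells were labelled room air. Medium, time in culture, passage and cell type therefore differ together between the groups and cannot be told apart. The labels state that cells came from 8 mice but do not say which array is which mouse, so the p-values measure the spread between arrays. That spread was estimated for each gene within groups over all 48 arrays, exposed ones included.

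Alveolar type II cells are the cuboidal cells of the air sac that make surfactant, a mix of phospholipid and surfactant proteins that lowers surface tension, and they give rise to the flat type I cells. Arterial smooth muscle cells sit in the vessel wall, contract through actin and myosin, and in culture shift towards a state that divides and secretes matrix. Epithelium and mesenchyme of the lung signal to each other through secreted factors of the hedgehog, Wnt, FGF, BMP and PDGF families.

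All values are log2 intensities, each gene is represented by the feature with the highest mean over the 48 arrays, and levels of different genes are not compared. Features numbered 62976, of which 31465 carried a gene name, for 20738 genes; 14775 genes passed a minimum mean of 2.73. The median of all features lay at 2.97 to 2.98 on every array, so a level near 3 or below belongs to the dimmest features, and a difference against such a level is a lower limit. The number of arrays limits the precision. Over the genes tested, the array-to-array SD had a median of 0.296 in AECII and 0.355 in PASMC.

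An adjusted p under 0.05 was reached by 8744 of 14775 genes, or 59.2%; 27.9% were higher in AECII and 31.3% were lower. Because most genes were called, a stricter reading was used beside it. A gene was named apart when it was called, differed by at least 1 on the log2 scale and showed no overlap between the 8 AECII and the 8 PASMC arrays. This held for 8.74% of genes in the AECII direction and 9.95% in the PASMC direction. Genes with every array of 1 culture above 6 and every array of the other below 4 made up 0.629% (93 genes, on in AECII) and 0.196% (29 genes, on in PASMC). The median difference over all genes tested was -0.04, and the counts and medians of the lists below are read against that value and these shares. Differences are AECII minus PASMC on the log2 scale, with the standard error (SE) after ±.

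**Figure D1:**
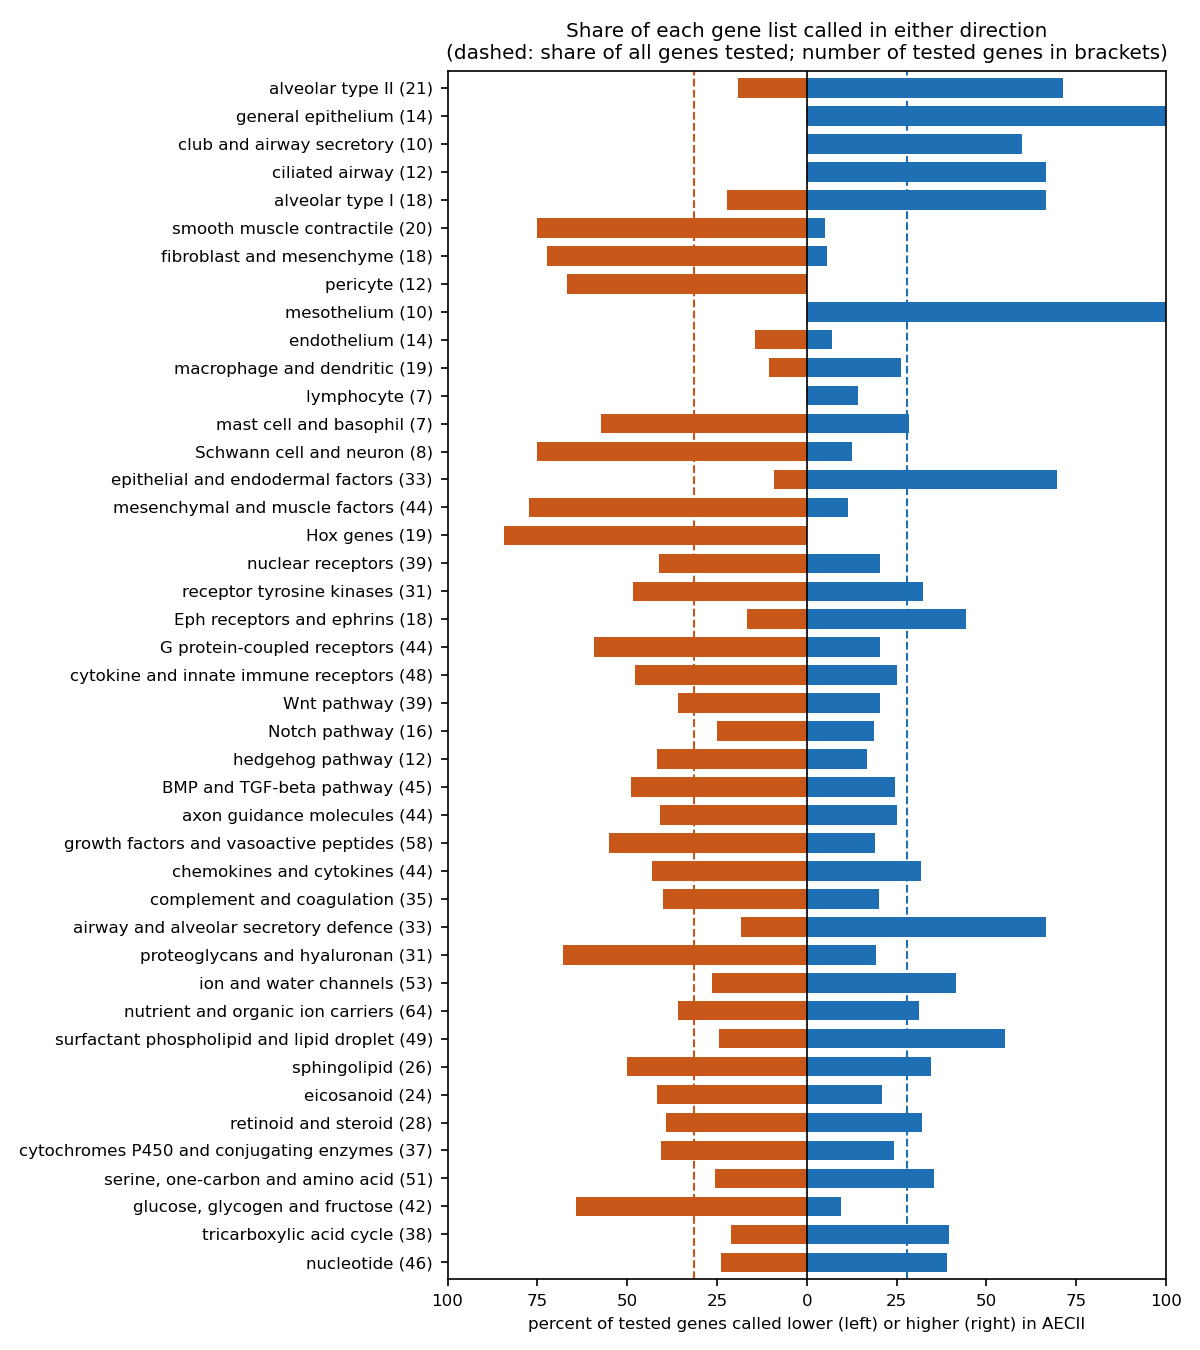
Bars give, for each of 43 gene lists (number of tested genes in brackets), the percent of tested genes called lower in AECII (left, orange) or higher in AECII (right, blue); dashed lines mark the 31.3% and 27.9% of all genes tested. The general epithelium and mesothelium lists reach 100 percent higher, while Hox genes, mesenchymal factors and contractile genes lie mostly on the left.

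The AECII label was set against its defining markers. Sftpc, the surfactant protein made by type II cells in the distal lung, lay between 13.80 and 14.65 in the 8 AECII arrays (median 14.42). In the 8 PASMC arrays it ran from 1.72 to 11.28 (median 4.15). The groups did not overlap, yet PASMC arrays 6, 7 and 8 stood at 10.34, 8.35 and 11.28 while the other 5 were at 5.04 or below. The difference of 8.56 ± 1.33 (SE, adjusted p = 3.33e-07) was 11.09 without those 3 arrays. They were left out for their high Sftpc, so this rise follows from the choice. Nkx2-1, the homeobox factor of lung epithelium, showed no such spread. It lay at 8.39 to 9.18 in AECII against 3.08 to 4.60 in PASMC, a difference of 4.93 ± 0.24 (adjusted p = 1.6e-22). Not every type II marker was high: Slc34a2, the phosphate carrier of type II cells, was at 2.15 to 3.78 in AECII and was not tested, as it fell under the minimum mean. Of the 21 type II markers tested, 15 were higher, 4 were lower and 2 were not called, beside 27.9% higher and 31.3% lower among all genes, with a median difference of 2.26.

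The AECII cultures also carried strong marks of other lung epithelium. Scgb1a1, the secretoglobin of club cells, lay at 15.65 to 15.79 in AECII, close to the highest value on any array, 15.89, and at 2.54 to 5.63 in PASMC. The narrow range in AECII is that of values near the top of the scale. Foxj1, the master factor of motile cilia, lay between 5.39 and 7.22 in AECII and between 1.94 and 3.77 in PASMC (difference 3.07 ± 0.33, adjusted p = 3.1e-11). Club markers were higher for 6 of 10 tested and ciliated markers for 8 of 12, with none lower in either list. Hopx, a homeodomain protein of type I cells, lay between 9.30 and 11.06 in AECII and between 1.99 and 4.84 in PASMC. Aqp5, the water channel of type I cells, differed by 7.70 ± 0.34 (adjusted p = 9.9e-24). The 18 type I markers tested divided into 12 higher and 4 lower.

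Mesothelial markers, which belong to the lining of the lung surface, were present in every AECII array. Lrrn4 lay at 9.67 to 10.96 (median 10.27) in AECII against 1.59 to 2.93 (median 2.32) in PASMC. Upk1b, an uroplakin, lay at 9.86 to 10.93 in AECII against 2.40 to 5.37 in PASMC. All 10 mesothelial markers on the list were higher and apart, with a median difference of 5.82. The mean level of the list ran from 9.29 to 10.38 over the AECII arrays and from 3.20 to 4.30 over the PASMC arrays. In bulk RNA, fewer cells of a type and less RNA per cell cannot be told apart. The part that mesothelial RNA has in the differences given below was not tested.

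The PASMC arrays carried the contractile markers of their label. Acta2, smooth muscle alpha-actin, lay between 14.49 and 15.38 in PASMC (median 14.89) and between 11.19 and 12.75 in AECII (median 11.37). Cnn1, calponin, lay between 12.09 and 13.85 in PASMC and between 7.61 and 9.22 in AECII, a difference of -4.55 ± 0.30 (adjusted p = 1.17e-17). Myh11, the smooth muscle myosin heavy chain of the most mature cells, was at 5.23 to 8.46 in PASMC and at 1.96 to 4.33 in AECII. None of these ranges overlapped. Myocd, the coactivator that drives contractile genes, was dim in both cultures, at 1.71 to 2.72 in PASMC and 2.03 to 3.62 in AECII, and fell under the minimum mean. Of 20 contractile genes tested, 15 were lower in AECII and 1 was higher.

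Mesenchymal surface proteins were higher in PASMC as well. Thy1, a glycoprotein of fibroblasts, lay at 11.81 to 13.63 in PASMC and at 5.09 to 7.39 in AECII. Pdgfrb, the PDGF receptor of pericytes and muscle cells, lay at 9.0 to 10.80 in PASMC and at 5.08 to 6.29 in AECII (difference -4.37 ± 0.23, adjusted p = 2.44e-21). Fap, a fibroblast protease, was at 9.22 or above in 7 PASMC arrays and at 6.12 in PASMC array 2, against 1.95 to 3.81 in AECII. Cd34 went the other way and was higher in AECII by 2.42 ± 0.29 (adjusted p = 1.11e-09), although another feature differed by 0.78. Fibroblast markers were lower in AECII for 13 of 18 tested and pericyte markers for 8 of 12, none of the latter being higher.

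PASMC arrays held markers of cells that the label does not name. Ngfr, the neurotrophin receptor of Schwann cells, lay at 8.64 to 12.14 in PASMC and at 2.27 to 3.75 in AECII. S100b, a calcium-binding protein of Schwann cells, lay at 7.04 to 8.97 in PASMC and at 1.98 to 2.96 in AECII. Of the 8 genes of that list tested, 6 were lower in AECII, with a median difference of -3.14; the exception called higher was Mbp, myelin basic protein, at 3.84 ± 0.16, for which another feature of the gene had the opposite sign. Mcpt8, a basophil protease, lay at 9.69 to 12.03 in PASMC and at 1.94 to 3.39 in AECII. Gata2 and the mast cell protease Mcpt4 were likewise apart in the PASMC direction, as were 4 genes of the mast cell and basophil list in all. The mast cell genes Cpa3, Fcer1a and Ms4a2, by contrast, were at 3.36 or below in all 16 arrays. Of 7 genes of the mast cell and basophil list tested, 4 were lower and 2 higher in AECII: Tpsb2, a tryptase, was apart at 6.56 to 7.38 in AECII against 4.52 to 5.83 in PASMC, and Hdc, the histamine-forming enzyme, chosen after its values were seen, differed by 2.09 without being apart. The mean level of the list was 3.91 to 4.39 in PASMC and 2.68 to 3.22 in AECII.

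The 8 PASMC arrays were less alike than the 8 AECII arrays: correlations between arrays across genes ran from 0.937 to 0.986 within PASMC and from 0.975 to 0.986 within AECII. Krt18, a keratin of simple epithelium, was at 12.09, 11.27 and 10.59 in PASMC arrays 2, 6 and 8 and at 4.92 to 6.57 in the other 5, against 15.28 to 15.48 in AECII. Vwf, the clotting factor stored by endothelium, was at 9.41 in PASMC array 8 and at 6.32 or below in the other 7. Marco, a receptor of alveolar macrophages, ran from 7.49 to 12.63 in PASMC and from 5.97 to 9.24 in AECII, and the mean of the macrophage list ran from 4.59 to 7.38 in PASMC and from 5.73 to 7.46 in AECII. Only 5 of 19 macrophage genes were higher and 2 lower, and without PASMC arrays 6, 7 and 8 these counts were 11 and 1. Cd74, the invariant chain of antigen presentation, was the macrophage-list gene apart, at 7.76 to 9.61 in AECII and 2.31 to 6.33 in PASMC. Leaving out PASMC arrays 2, 6 and 8 kept the count of genes apart within 1.5 times, at 1533 higher and 1943 lower in place of 1292 and 1470. With fewer arrays an overlap is also less likely.

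No named gene lost its call without these 3 arrays, and the differences of 35 of the 222 named genes tested moved by over 1.5-fold. The arrays were left out because Krt18 was above 10 in them, so wider differences of genes that run with Krt18 follow from the choice. Among epithelial genes, Krt8 moved from 8.4 to 10.43, Cdh1 from 7.91 to 9.23, Cldn7 from 8.08 to 9.07, Krt19 from 6.74 to 7.51, Wfdc2 from 9.74 to 11.24, Foxa1 from 6.82 to 7.56, Sftpc from 8.56 to 9.77, Sftpd from 8.74 to 9.90, Krt7 to 10.62 and Mal2 to 10.06. Surface and secreted products of AECII moved likewise, Adgrg1 to 6.14, Gprc5c to 5.99, Epha2 to 3.92, Edn1 to 3.98 and Clu to 4.12. So did Cd74 to 5.67, Esam to 4.10, Upk1b to 7.33 and Tspan1 to 10.49, and the enzyme Cyp1a1 to 5.75. Genes of PASMC moved away from 0 for Ccn5 (-6.31), Hgf (-4.75), Sfrp1 (-5.16), Serping1 (-5.51), Sod3 (-3.12), Podn (-4.61), Ndufa4l2 (-8.82) and Cyp7b1 (-4.93), and towards 0 for Myh11 (-3.57), Trpc6 (-2.34), Kcnmb1 (-1.65) and Igfbp2 (-3.49). Without PASMC arrays 6, 7 and 8, 10 named genes moved as far, Cbr2 to 7.53, Arg1 to 4.23, Sftpc to 11.09, Sftpd to 10.01, Krt8 to 9.23, Cdh1 to 8.53, Wfdc2 to 10.67, Tspan1 to 10.34, Cd74 to 5.36 and Esam to 3.83, and Fgfr2 lost its call.

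**Figure D2:**
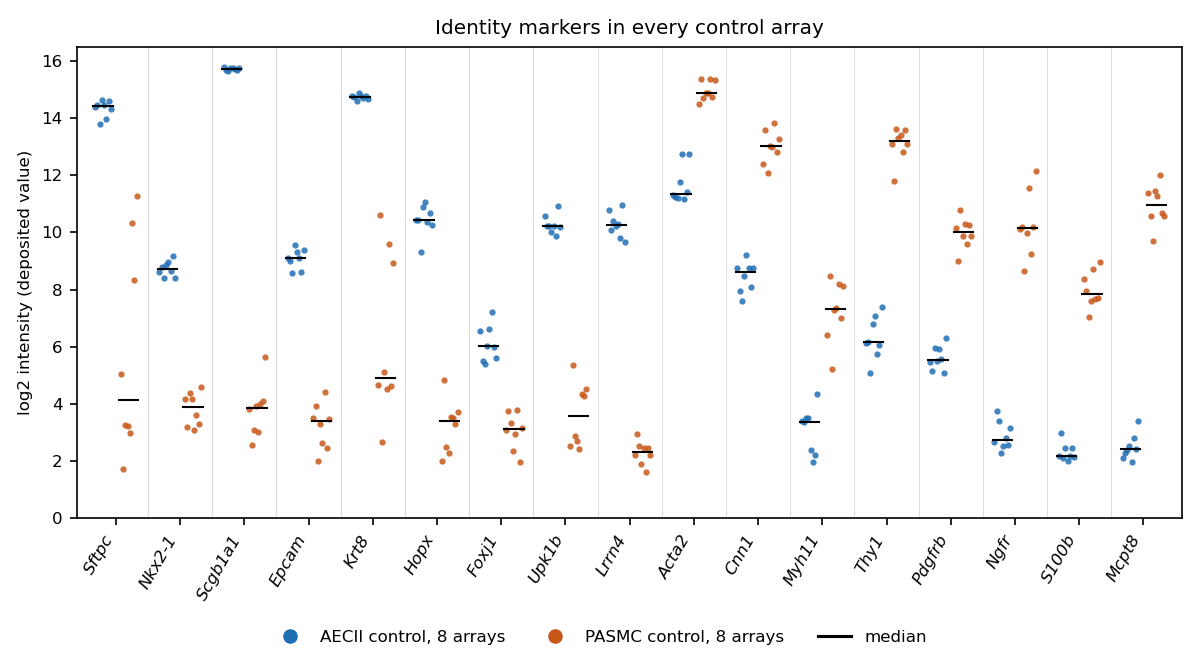
Each point is 1 control array (blue, AECII; orange, PASMC), the vertical axis is log2 intensity and the black bars are medians of 8 arrays. AECII arrays hold Sftpc, Scgb1a1, Krt8 and the mesothelial genes Upk1b and Lrrn4; PASMC arrays hold Acta2, Cnn1, Thy1, Ngfr, S100b and Mcpt8, while Sftpc and Krt8 spread widely among the PASMC arrays.

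Factors of endodermal gene programmes were higher in AECII. Foxa2, a forkhead pioneer factor, lay between 10.26 and 10.95 in AECII (median 10.70) and between 2.06 and 5.54 in PASMC (median 2.40). The difference was 7.47 ± 0.49 (adjusted p = 9.21e-18), and 8.43 without PASMC arrays 2, 6 and 8; another feature of Foxa2 differed by 5.36. Its relative Foxa1 lay between 10.41 and 10.88 in AECII and between 2.74 and 5.72 in PASMC, a difference of 6.82 ± 0.37 (adjusted p = 9.76e-21). Of 33 epithelial and endodermal factors tested, 23 were higher, 3 were lower and 18 were apart in the AECII direction, with a median difference of 1.41.

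Exceptions to that pattern were factors of the growing lung bud. Etv5, an ETS factor that answers FGF signalling in the distal epithelium, was higher in PASMC, at 9.58 to 10.04 against 6.99 to 7.90 in AECII (difference -2.26 ± 0.13, adjusted p = 1.8e-19). Sox9, a factor of distal buds and of cartilage, was at 5.28 to 6.37 in PASMC and at 2.93 to 5.05 in AECII (difference -1.63 ± 0.25, adjusted p = 2.63e-07). Neither range overlapped between the cultures.

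Mesenchymal and muscle factors ran the other way, with 34 of 44 lower in AECII and 27 of them apart. Nr2f1, an orphan nuclear receptor of mesenchyme and neural crest, lay between 9.92 and 11.43 in PASMC (median 11.13) and between 5.01 and 6.94 in AECII (median 5.59). The bHLH factor Twist2 differed by -4.88 ± 0.26 (adjusted p = 3.52e-21) and the homeobox factor Prrx1 by -4.61 ± 0.26 (adjusted p = 5.87e-20). Twist1, which drives mesenchymal fate, lay at 5.23 to 6.4 in PASMC and at 2.10 to 4.36 in AECII. The repressors of epithelial genes were in this group too. Chosen after their values were seen, Snai2 differed by -3.96, Zeb1 by -2.23, Zeb2 by -2.13 and Snai1 by -1.46, and all 4 were apart.

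On the mesenchymal list, 3 genes were apart in the AECII direction. Scx, the bHLH factor of tendon, lay at 10.36 to 11.17 in AECII against 5.00 to 7.25 in PASMC. Gata4, a zinc finger factor of heart and of mesothelium, differed by 2.05 ± 0.27 (adjusted p = 1.1e-08). Srf, serum response factor, the DNA-binding partner of myocardin, lay at 9.23 to 9.49 in AECII against 7.60 to 8.86 in PASMC, a difference of 1.29 ± 0.16 (adjusted p = 1.6e-09), but another feature of Srf differed by -0.35.

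Hox genes, which hold positional identity along the body axis, were lower in AECII wherever they were called. Of 19 tested, 16 were lower, 12 were apart and none was higher, with a median difference of -2.34. Hoxb6 lay at 8.66 to 9.43 in PASMC and at 4.60 to 6.17 in AECII, a difference of -3.87 ± 0.25 (adjusted p = 4.19e-18). Its neighbours in the B cluster followed, Hoxb8 at -3.77 ± 0.30 and Hoxb5 at -3.67 ± 0.23.

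**Figure D3:**
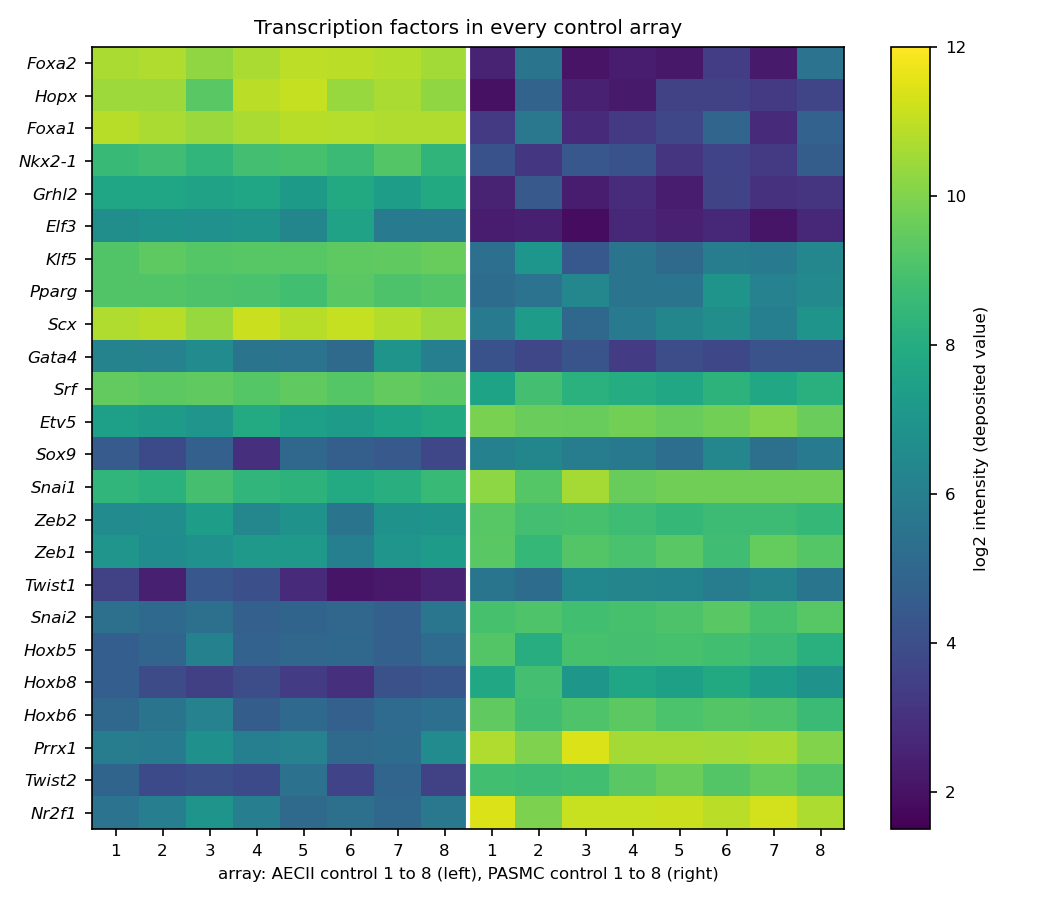
Each cell of the map is the log2 intensity of 1 transcription factor (rows) in 1 control array (columns; AECII 1 to 8 left of the white line, PASMC 1 to 8 right of it), from dark (1.5) to yellow (12). Rows from Foxa2 to Srf are brighter on the left and rows from Etv5 to Nr2f1 brighter on the right, and Foxa2 and Foxa1 are less dark in PASMC arrays 2, 6 and 8 than in the other PASMC arrays.

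Promoter sequences of a few genes that moved together are shown. The repressors Snai1, Snai2, Zeb1 and Zeb2 are known to bind the E-box CACCTG, but whether they act on these genes was not tested. Each gene shown holds the motif marked in it, so the sequences are examples and no measure of how common a motif is. The markers Acta2 and Cnn1, which also had a promoter sequence, are not shown. The sequences are the 250 bases before the RefSeq start on GRCm38.p6, written 5′ to 3′ on the gene's strand, chosen after the values were seen. Epcam (the adhesion molecule of epithelium) lies at chr17:87635729-87635978 on the plus strand, Rab25 (a small GTPase of epithelial recycling vesicles) at chr3:88548280-88548529 on the minus strand, and Cldn4 (a tight junction claudin) at chr5:134946935-134947184 on the minus strand. Myl9, the regulatory light chain of smooth muscle myosin, lies at chr2:156775214-156775463 on the plus strand and is shown for contrast. Capitals mark CACCTG or its reverse complement CAGGTG in the first 3 sequences, and the CArG box, the site bound by serum response factor, in Myl9.
Epcam: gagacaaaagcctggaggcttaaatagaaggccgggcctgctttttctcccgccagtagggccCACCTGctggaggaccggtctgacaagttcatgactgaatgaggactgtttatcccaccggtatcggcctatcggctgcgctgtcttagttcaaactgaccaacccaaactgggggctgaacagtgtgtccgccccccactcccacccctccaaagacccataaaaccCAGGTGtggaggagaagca
Rab25: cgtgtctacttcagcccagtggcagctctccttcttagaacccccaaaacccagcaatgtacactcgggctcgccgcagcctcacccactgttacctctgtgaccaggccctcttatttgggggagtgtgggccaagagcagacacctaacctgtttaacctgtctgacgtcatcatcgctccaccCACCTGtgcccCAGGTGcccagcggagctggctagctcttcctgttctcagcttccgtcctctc
Cldn4: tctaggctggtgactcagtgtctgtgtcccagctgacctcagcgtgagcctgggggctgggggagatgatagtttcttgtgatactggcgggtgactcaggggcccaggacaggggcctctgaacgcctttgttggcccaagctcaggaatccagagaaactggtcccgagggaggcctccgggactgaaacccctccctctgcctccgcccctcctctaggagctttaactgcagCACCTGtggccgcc
Myl9: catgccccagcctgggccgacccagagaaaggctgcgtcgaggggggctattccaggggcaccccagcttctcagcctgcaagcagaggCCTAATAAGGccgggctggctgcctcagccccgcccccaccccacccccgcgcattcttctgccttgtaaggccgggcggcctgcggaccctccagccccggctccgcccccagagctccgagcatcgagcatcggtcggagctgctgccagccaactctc
Epcam held the E-box 187 and 19 bases before its start, Rab25 at 64 and 53 bases and Cldn4 at 14 bases, and Myl9 held 1 CArG box at 161 bases. Epcam lay at 8.60 to 9.56 in AECII against 1.99 to 4.42 in PASMC (difference 5.88 ± 0.31). Rab25 lay at 9.16 to 9.66 in AECII against 1.63 to 4.58 in PASMC (difference 6.60 ± 0.27). Cldn4 lay at 10.11 to 10.88 in AECII against 2.25 to 5.73 in PASMC (difference 7.12 ± 0.40). These 3 genes were apart in the AECII direction, and Myl9 in the other, at 11.09 to 12.51 against 14.20 to 14.90 (difference -2.63 ± 0.17).

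In all, 10 motifs were sought on both strands in the same 250-base stretch of 27025 genes, taking the start listed at the top for each gene. CACCTG was found in 17.1% of all promoters, in 15.9% of those of genes tested, in 27.6% of 990 genes apart and higher in AECII, and in 12.9% of 1137 genes apart and lower. The remaining shares are given for genes tested, for the higher and for the lower genes, in that order, after the share of all promoters. TGACTCA, the AP-1 site, was in 4.43% of all promoters and in 3.56%, 7.07% and 4.4%. The CArG box was in 1.4% of all and in 1.31%, 2.02% and 1.58%. The forkhead motif TGTTTAC was in 3.09% of all and in 2.32%, 2.63% and 2.81%, and TGTTTGC in 4.3% of all and in 3.2%, 3.64% and 2.2%. CAAGTG and TCAAG overlap by 4 letters, and were in 11.6% and 36% of all promoters. CAAGTG was in 9.7%, 10.4% and 9.06%, and TCAAG in 31.1%, 30.5% and 30.1%. CATTCC was in 12.6% of all and in 11%, 14.2% and 11.5%, and CCAAT in 34.5% of all and in 36%, 32.6% and 33.2%. The GRHL site AACCGGTT was in 0.122% of all promoters, in 0.179% of genes tested, in none of the 990 and in 0.264% of the lower genes. The median GC content was 59.6% for the higher and 60.4% for the lower genes, against 58.8% for genes tested. These shares are descriptions without a test, and the genes were chosen by the difference itself.

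Of the nuclear receptors, the factors switched by lipids and hormones, 8 of 39 were higher and 16 lower (61.5% called, beside 59.2% of all genes). Pparg, the fatty acid receptor active in type II cells and macrophages, lay at 8.83 to 9.32 in AECII (median 9.12) against 5.21 to 6.95 in PASMC (median 5.85). It differed by 3.14 ± 0.24 (adjusted p = 8.12e-16). Esrrb, an estrogen-related receptor, and Nr1i3, the drug sensor CAR, were higher by 2.88 ± 0.28 and 2.57 ± 0.42. The immediate early receptors Nr4a2 and Nr4a1 were lower in AECII, at -2.52 ± 0.28 and -2.07 ± 0.14. Nr3c1, the glucocorticoid receptor, was at 9.53 to 9.68 in AECII against 9.38 to 10.65 in PASMC; the arrays overlapped, the difference of -0.38 ± 0.13 (adjusted p = 0.0136) was no longer called without PASMC array 3, and another feature differed by 0.04.

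Receptor tyrosine kinases read out growth factors at the surface, and 10 of 31 were higher in AECII and 15 lower. Fgfr3 lay at 7.68 to 8.37 in AECII against 3.22 to 4.72 in PASMC, a difference of 4.16 ± 0.27 (adjusted p = 6.08e-18), but another bright feature of Fgfr3 differed by only 0.54. Fgfr2, the receptor for Fgf7 and Fgf10 on distal epithelium, lay at 5.19 to 5.81 in AECII against 3.47 to 5.42 in PASMC. Those ranges overlapped, and the difference of 0.60 ± 0.23 (adjusted p = 0.0256) was no longer called without PASMC array 7. Egfr, the receptor of epidermal growth factor, was lower in AECII, at 8.22 to 9.43 against 10.73 to 11.28. The collagen receptors went in opposite directions, Ddr1 higher by 1.52 ± 0.14 and Ddr2 lower, at -2.20 ± 0.17. Ror2, a receptor of Wnt5a, was lower, at -2.36 ± 0.21 (adjusted p = 2.6e-13), and Ret, the receptor of GDNF ligands, was at 3.76 to 4.75 in AECII against 1.82 to 3.14 in PASMC.

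Eph receptors and their ephrin ligands act between touching cells. Of 18 tested, 8 were higher and 3 lower (61.1% called, beside 59.2% of all genes). The ligand Efna1 lay at 9.61 to 10.29 in AECII against 3.85 to 5.99 in PASMC (difference 5.08 ± 0.32, adjusted p = 1.86e-18). Its receptor Epha2 was higher in the same culture, at 11.01 to 11.61 against 6.47 to 9.79. Epha1 was higher by 2.48 ± 0.25, and Epha7 was lower, at -2.87 ± 0.30 (another feature, -1.04).

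G protein-coupled receptors carry most vasoactive signals, and 26 of 44 were lower in AECII and 9 higher, with a median difference of -0.83. S1pr3, a receptor of sphingosine 1-phosphate, lay at 7.16 to 9.78 in PASMC (median 8.86) and at 2.79 to 5.49 in AECII (median 4.36). Tbxa2r, the thromboxane receptor that constricts vessels, lay at 5.26 to 8.31 in PASMC and at 1.79 to 2.92 in AECII, a difference of -4.43 ± 0.44 (adjusted p = 4.64e-12). Htr2a, the serotonin receptor of vessel constriction, lay at 7.09 to 8.66 in PASMC and at 2.44 to 4.99 in AECII. Not all constrictor receptors were present: Agtr1a, the angiotensin receptor, was at 4.41 or below in all 16 arrays and differed by -0.31 ± 0.31 (adjusted p = 0.405). On the epithelial side, the adhesion receptor Adgrg1 was higher by 5.36 ± 0.46, the orphan receptor Gprc5c by 5.29 ± 0.41 (0.43 to 5.18 over 3 other features) and Gprc5a, an orphan receptor of lung epithelium, by 5.05 ± 0.27. Ednra was not analysed here.

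Cytokine and innate immune receptors were higher in AECII for 12 of 48 and lower for 23 (72.9% called, beside 59.2% of all genes). The 3 widest differences towards AECII were in receptors of cytokines that act on epithelium. Il18r1, a chain of the interleukin-18 receptor, lay at 9.73 to 10.52 in AECII against 1.89 to 5.25 in PASMC, where array 2 was highest; its difference of 7.41 was 4.95 by another feature. Il17re, the receptor chain for interleukin-17C, filled 8.80 to 9.04 in AECII and 1.70 to 3.70 in PASMC. Ifnlr1, the receptor chain for lambda interferons, lay at 7.91 to 8.69 in AECII against 2.88 to 3.81 in PASMC, a difference of 4.96 ± 0.23 (adjusted p = 4.18e-23). Muscle cultures were higher for Il4ra, a chain shared by the interleukin-4 and interleukin-13 receptors, at -3.14 ± 0.29 (another feature, -1.95). They were also higher for Il1rap, the accessory chain of the interleukin-1 receptor, at -2.73 ± 0.27, and for Ghr, the growth hormone receptor, at -2.16 ± 0.11.

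Wnt ligands, their enhancers and their secreted inhibitors were measured for 39 genes. In AECII 8 were higher and 14 lower (56.4% called, beside 59.2% of all genes). Wnt7a lay at 8.19 to 8.96 in AECII (median 8.58) against 1.90 to 4.26 in PASMC (median 2.46). Wnt7b, the ligand by which lung epithelium acts on mesenchyme, lay at 6.14 to 7.33 in AECII against 1.85 to 2.67 in PASMC, a difference of 4.47 ± 0.20 (adjusted p = 3.18e-23). Rspo1, an enhancer of Wnt signals that was also on the mesothelial list, was higher in AECII by 5.08 ± 0.39. The 3 widest differences towards PASMC were those of secreted inhibitors. Dkk2 lay at 8.84 to 10.22 in PASMC and at 2.62 to 3.94 in AECII (difference -6.24 ± 0.23, adjusted p = 1.91e-26), Dkk3 differed by -4.92 ± 0.29 and Sfrp1 by -4.48 ± 0.49. Wnt5a, a ligand of mesenchyme, was at 8.08 to 9.07 in PASMC and at 6.51 to 7.84 in AECII.

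Hedgehog signals run from lung epithelium to the mesenchyme around it. Shh lay at 5.57 to 7.45 in AECII (median 6.23) against 1.70 to 2.60 in PASMC (median 2.03), a difference of 4.20 ± 0.26 (adjusted p = 7.06e-19). Dhh, the ligand of Schwann cells, had the opposite order, at 5.41 to 7.59 in PASMC and at 2.66 to 4.91 in AECII, in arrays where Schwann cell markers were also higher; the part of those cells was not tested. Gli1, a target gene of the pathway, was dim in both cultures, at 2.12 to 3.88 and 1.92 to 3.68 (difference -0.03 ± 0.29, adjusted p = 0.938). Disp1, which releases the ligand, was lower in AECII, at -1.57 ± 0.16. Of 12 hedgehog genes tested, 2 were higher and 5 lower (58.3% called, beside 59.2% of all genes).

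Notch receptors differed by paralogue. Notch1 lay at 4.51 to 5.72 in AECII against 1.65 to 3.27 in PASMC. Notch3, the receptor of vascular smooth muscle and pericytes, lay at 5.78 to 7.39 in PASMC and at 2.67 to 4.44 in AECII (difference -3.38 ± 0.31, adjusted p = 2.88e-13). Notch4, an endothelial receptor, was lower, at -2.73 ± 0.27. Of 16 Notch genes tested, 3 were higher and 4 lower (43.8% called, beside 59.2% of all genes).

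BMP and TGF-beta signals are set by ligands, by secreted antagonists and by receptors. The list was lower in AECII for 22 of 45 genes and higher for 11 (73.3% called, beside 59.2% of all genes). Grem1, a secreted BMP antagonist, lay at 14.57 to 15.29 in PASMC (median 14.90) and at 9.0 to 10.35 in AECII (median 9.66). The difference was -5.24 ± 0.20 (adjusted p = 1.55e-26). Fst, follistatin, which binds activins, differed by -3.99 ± 0.30, and Ltbp2, a latent TGF-beta binding protein of elastic fibres, by -3.31 ± 0.21. Acvrl1, the type I receptor ALK1, lay at 10.21 to 10.96 in PASMC and at 6.35 to 7.68 in AECII. Id1 and Id2, which are induced by BMP, were higher in AECII by 1.75 ± 0.19 and 1.69 ± 0.16. Bmp3, a BMP that can oppose other BMPs, was the third gene apart in the AECII direction, at 2.79 to 4.38 against 1.85 to 2.54 in PASMC. In the PASMC direction 14 were apart.

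Axon guidance molecules are used in the lung for branching and vessel patterning. They were lower in AECII for 18 of 44 and higher for 11 (65.9% called, beside 59.2% of all genes). Slit3 lay at 7.04 to 9.67 in PASMC and at 3.12 to 4.46 in AECII (difference -4.75 ± 0.35, adjusted p = 3.14e-16). Sema3a, a secreted semaphorin, differed by -4.05 ± 0.26, and the plexin Plxna3 by -2.25 ± 0.27. Sema4d, a membrane semaphorin, lay at 6.39 to 7.22 in AECII against 1.98 to 3.97 in PASMC. Plxnb1, the receptor of Sema4d, was higher in the same culture by 2.69 ± 0.33. The feature of Dcc, a netrin receptor of neurons, was bright in both, at 12.97 to 14.14 in AECII and 10.29 to 11.15 in PASMC.

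Growth factors were mostly products of the muscle cultures, with 32 of 58 lower in AECII, 11 higher and a median difference of -0.97. Hgf, which acts on the epithelial receptor Met, lay at 4.50 to 8.45 in PASMC (median 6.90) and at 1.79 to 3.42 in AECII (median 2.64). Fgf7 lay at 10.54 to 11.65 in PASMC and at 7.59 to 9.32 in AECII (difference -3.0 ± 0.24, adjusted p = 6.44e-15). Fgf10, the bud-inducing FGF, lay at 6.33 to 8.83 in PASMC and at 4.19 to 5.52 in AECII. The matricellular protein Ccn5 differed by -5.43 ± 0.61, the insulin-like growth factor binding protein Igfbp2 by -4.16 ± 0.51 and the vasoactive peptide Apln by -4.0 ± 0.45. Vegfa, the endothelial growth factor that type I and II cells also make, was at 11.38 to 12.47 in PASMC and at 10.30 to 10.85 in AECII.

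Among the 11 genes of this list that were higher in AECII, Pdgfb, Edn2 and Edn1 had the widest differences. Pdgfb, a ligand of the receptor Pdgfrb, lay at 9.96 to 11.34 in AECII (median 10.52) against 4.17 to 8.81 in PASMC (median 6.34). The difference was 4.18 ± 0.53 (adjusted p = 2.84e-09), and 4.94 without PASMC arrays 2, 6 and 8; another feature of Pdgfb differed by 2.54. Edn1, endothelin-1, lay at 8.90 to 9.72 in AECII against 4.99 to 7.57 in PASMC, and Edn2 at 5.17 to 6.53 and 1.81 to 2.77. For the ligand and receptor pair Pdgfb and Pdgfrb, the ligand was thus apart in the AECII direction and the receptor in the PASMC direction.

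Chemokines and cytokines were higher in AECII for 14 of 44 and lower for 19 (75% called, beside 59.2% of all genes). Tnfsf15, a TNF family ligand, lay at 11.04 to 12.46 in PASMC (median 11.89) and at 5.18 to 6.37 in AECII (median 5.72). Spp1, osteopontin, was at 12.41 to 14.43 in PASMC and at 7.12 to 9.52 in AECII. Il6, a cytokine of stromal cells, differed by -4.26 ± 0.24 (adjusted p = 3.34e-20). The scavenger chemokine Cxcl16 was higher in AECII, at 8.82 to 9.55 against 4.31 to 6.56, followed by the mucosal chemokine Cxcl17 at 3.52 ± 0.34 and the interferon-induced Cxcl10 at 2.74 ± 0.34. Cxcl15, lungkine, lay at 4.03 to 5.54 in AECII against 2.00 to 4.0 in PASMC. Il33, an alarmin kept in the nuclei of type II cells in vivo, had its higher values in PASMC, at 4.61 to 8.15 against 3.87 to 5.05, with overlap (difference -2.55 ± 0.42, adjusted p = 1.36e-06). Cxcl12, the ligand of CXCR4, overlapped as well, at -1.44 ± 0.34 (another feature, -3.14).

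**Figure D4:**
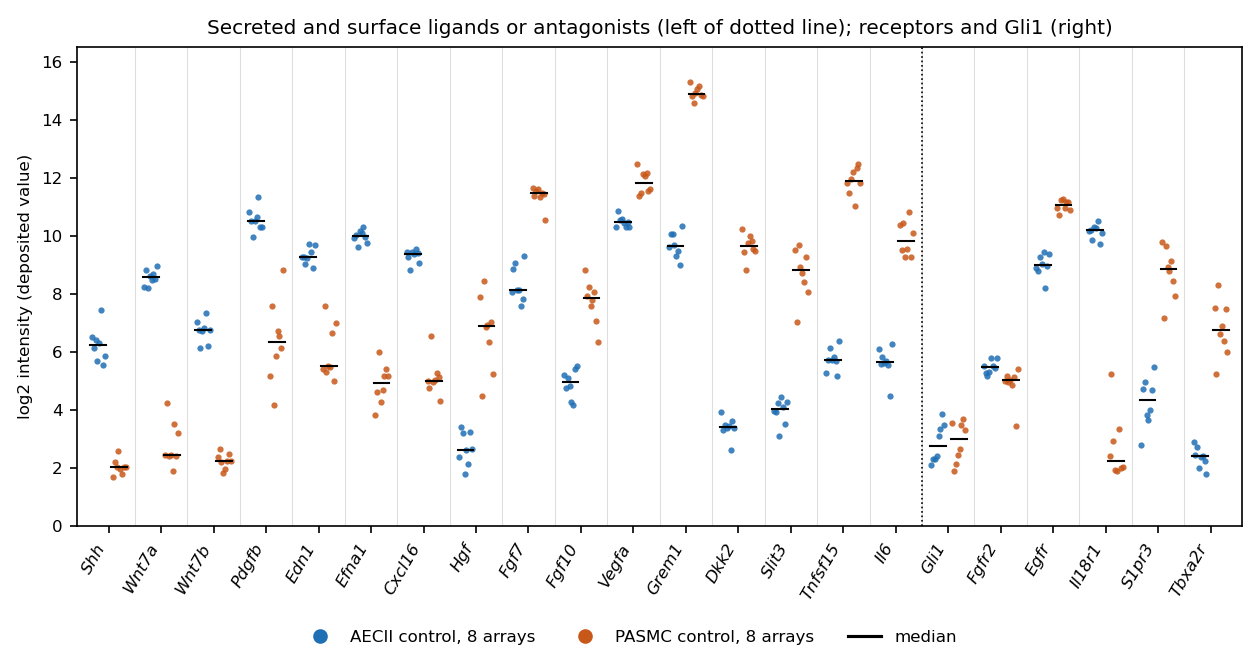
Points are single control arrays (blue, AECII; orange, PASMC), the vertical axis is log2 intensity, and bars are medians of 8 arrays. Shh, Wnt7a, Wnt7b, Pdgfb, Edn1, Efna1 and Cxcl16 lie higher in AECII; Hgf, Fgf7, Fgf10, Vegfa, Grem1, Dkk2, Slit3, Tnfsf15 and Il6 lie higher in PASMC, while Gli1 and Fgfr2 overlap.

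Complement and coagulation genes were lower in AECII for 14 of 35 and higher for 7 (60% called, beside 59.2% of all genes). Serpinf1, the secreted serpin PEDF, lay at 11.69 to 14.17 in PASMC and at 5.82 to 8.01 in AECII. Serping1, the C1 inhibitor, differed by -4.49 ± 0.54, and Pros1, the anticoagulant protein S, by -3.13 ± 0.21. Clu, the chaperone and complement inhibitor clusterin, lay at 15.28 to 15.39 in AECII, also near the top of the scale, and ran from 10.58 to 13.11 in PASMC. Proc, protein C, and its receptor Procr were both higher in AECII, by 2.77 ± 0.28 and 1.62 ± 0.23. C3, the central complement component, was not called: it lay at 11.05 to 11.74 in AECII and spread from 7.36 to 13.18 in PASMC (difference 1.11 ± 0.52, adjusted p = 0.0623).

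Among secreted defence proteins of airway and alveolus, 22 of 33 genes were higher and 6 lower, with a median difference of 3.44. Wfdc2, a protease inhibitor of airway fluid, lay at 14.21 to 14.62 in AECII against 2.58 to 7.73 in PASMC. Bpifa1, the airway lipid-binding protein SPLUNC1, lay at 8.81 to 10.01 in AECII against 1.57 to 3.06 in PASMC, and Scgb3a1, a secretoglobin, at 9.01 to 10.67 and 2.02 to 3.74. The extracellular antioxidants were exceptions. Gpx3, the secreted glutathione peroxidase, lay at 9.01 to 10.32 in PASMC and at 4.45 to 8.14 in AECII, and Sod3, the superoxide dismutase of the vessel wall, at 9.58 or above and at 9.39 or below.

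Proteoglycans and hyaluronan enzymes, which shape the hydrated matrix, were lower in AECII for 21 of 31 with a median difference of -1.74. Chst11, a chondroitin sulfotransferase, lay at 8.93 to 9.75 in PASMC and at 4.85 to 6.16 in AECII (difference -3.74 ± 0.20, adjusted p = 3.55e-21). Cspg4, the pericyte proteoglycan NG2, differed by -3.67 ± 0.42, and the small leucine-rich Podn by -3.56 ± 0.72. The 3 genes apart in the AECII direction were Spock2 at 1.89 ± 0.32, the hyaluronan synthase Has1 at 1.56 ± 0.21 and the epithelial syndecan Sdc1 at 1.26 ± 0.20.

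Ion and water channels were higher in AECII for 22 of 53, with 17 apart (67.9% called in either direction, beside 59.2% of all genes). Scnn1a, the alpha subunit of the sodium channel that clears alveolar fluid, lay at 11.04 to 12.04 in AECII (median 11.84) against 3.45 to 6.52 in PASMC (median 4.33). Clic5, a chloride channel protein of type I cells, differed by 7.28 ± 0.31 (adjusted p = 1.87e-24). Of the 53, 14 were lower, and Trpc6, Piezo2 and Kcnmb1 had the widest differences among those apart. Not all channels of smooth muscle followed. Chosen after their values were seen, Kcnma1 differed by -0.265 ± 0.225 (adjusted p = 0.324) and Kcna5 by 0.214 ± 0.265 (adjusted p = 0.511). Cacna1c fell under the minimum mean. The calcium-entry channel Trpc6 lay at 4.44 to 7.98 in PASMC and at 2.14 to 4.02 in AECII, the stretch-gated channel Piezo2 differed by -2.51 ± 0.30, and Kcnmb1, the beta subunit of the calcium-gated potassium channel of smooth muscle, by -2.32 ± 0.42.

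Carriers of nutrients were higher for 20 of 64 and lower for 23 (67.2% called, beside 59.2% of all genes). Slc6a14, an amino acid carrier of mucosal epithelium, lay at 8.23 to 9.38 in AECII against 2.04 to 3.68 in PASMC (difference 6.15 ± 0.21, adjusted p = 4.91e-28). Lrp2, the endocytic receptor megalin, differed by 5.37 ± 0.35 and Slc44a4, a choline carrier-like protein, by 3.86 ± 0.23. Slc1a6, a glutamate carrier best known from Purkinje cells, lay at 9.10 to 10.21 in PASMC and at 2.03 to 3.54 in AECII. Slc16a3, the lactate exporter of glycolytic cells, lay at 11.93 to 13.21 in PASMC and at 8.11 to 9.46 in AECII. Abcb1a, the drug efflux pump, differed by -3.28 ± 0.31.

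Surfactant and lipid droplet genes were higher in AECII for 27 of 49 and lower for 12, and 26.5% were apart in either direction, beside 18.7% of all genes, with a median difference of 0.43. Elovl7, an elongase of long fatty acids, lay at 9.18 to 10.06 in AECII against 2.95 to 4.55 in PASMC (difference 5.93 ± 0.32, adjusted p = 5.43e-21). Lpin2, a phosphatidate phosphatase, differed by 2.67 ± 0.15 and Lpcat1, the acyltransferase that remodels surfactant phosphatidylcholine, by 2.04 ± 0.26. Fasn and Scd1, enzymes of fatty acid synthesis named whatever their value, differed little and overlapped between cultures. Fasn, the synthase, lay at 5.26 to 6.20 in AECII against 4.55 to 5.79 in PASMC (difference 0.58 ± 0.19, adjusted p = 0.00731), and Scd1, the desaturase, differed by 0.78 ± 0.17. Elovl4, Dgat2 and Lipa, of very long chain synthesis, triglyceride synthesis and lysosomal lipid breakdown, were lower, at -2.42 ± 0.23, -1.86 ± 0.19 and -1.61 ± 0.18.

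Sphingolipid enzymes make, break and glycosylate ceramide, a lipid of membranes and signalling. Smpd3, a neutral sphingomyelinase that yields ceramide, lay at 8.80 to 10.46 in AECII (median 9.77) against 1.91 to 3.97 in PASMC (median 2.53). Cers3, the ceramide synthase of very long acyl chains, lay at 8.23 to 9.05 in AECII against 2.15 to 3.71 in PASMC. Ugcg, which turns ceramide into glucosylceramide, was lower in AECII, at -2.76 ± 0.11 (adjusted p = 3.37e-25), Cers4 by -1.62 ± 0.11 and Sphk1, which makes sphingosine 1-phosphate, by -1.60 ± 0.18. Of 26 tested, 9 were higher and 13 lower.

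Eicosanoids are lipid signals made by cyclooxygenases and cleared by reductases and hydrolases. Of 24 genes, 5 were higher and 10 lower (62.5% called, beside 59.2% of all genes). Ptgs2, the inducible cyclooxygenase, lay at 11.95 to 12.87 in AECII against 9.89 to 13.28 in PASMC and was not called (difference 0.42 ± 0.36, adjusted p = 0.328); without PASMC arrays 2, 6 and 8 it was called at 0.96 (adjusted p = 0.0325). Ptgis, prostacyclin synthase, an enzyme of vessel walls, lay at 11.81 to 13.31 in AECII against 11.59 to 13.24 in PASMC (difference 0.10 ± 0.20, adjusted p = 0.686). Hpgd, which inactivates prostaglandins, lay at 5.28 to 7.74 in AECII against 1.82 to 3.04 in PASMC. The carbonyl reductase Cbr2 of lung epithelium was higher by 6.76 ± 0.75 (another feature, 3.99) and the prostaglandin carrier Slco2a1 by 1.28 ± 0.23, whereas Ephx2, the epoxide hydrolase, was lower, at -2.53 ± 0.18 and Ptgs1, the constitutive cyclooxygenase, by -1.10 ± 0.15.

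Retinoid and steroid enzymes were higher for 9 of 28 and lower for 11 (71.4% called, beside 59.2% of all genes). The 3 widest differences towards AECII were those of oxidising enzymes. Rdh10, which oxidises retinol, lay at 10.21 to 10.86 in AECII against 6.20 to 6.83 in PASMC (difference 4.04 ± 0.12, adjusted p = 7.17e-30). Aldh1a1, which forms retinoic acid, differed by 3.97 ± 0.22, and its relative Aldh1a7 by 4.85 ± 0.38. The binding protein Crabp1 was lower, at -2.89 ± 0.45, Retsat, a retinol saturase, by -1.67 ± 0.15 and the reductase Rdh12 by -1.59 ± 0.17. Hsd11b1, which regenerates active glucocorticoid, overlapped, at 9.14 to 10.49 in AECII against 8.68 to 10.10 in PASMC (difference 0.14 ± 0.24, adjusted p = 0.65).

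Cytochromes P450 and conjugating enzymes were higher for 9 of 37 and lower for 15, and 18.9% were apart, beside 18.7% of all genes. Cyp2b10, a target of the receptor CAR in liver, lay at 7.77 to 9.65 in AECII against 2.26 to 3.81 in PASMC. Cyp2s1 differed by 5.50 ± 0.36, and Cyp1a1, the hydrocarbon-induced enzyme, by 4.67 ± 0.67. Cyp7b1, an oxysterol hydroxylase, lay at 6.55 to 10.12 in PASMC and at 3.67 to 5.38 in AECII. Maob, which breaks down amines, and Cyp4f13 were lower in AECII, at -1.04 ± 0.23 and -1.05 ± 0.11.

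Among amino acid enzymes, the widest difference in either direction fell on arginine handling. Ass1, argininosuccinate synthase, which remakes arginine from citrulline, lay at 11.54 to 12.18 in PASMC (median 11.98) and at 8.06 to 9.13 in AECII (median 8.46). Arg1, arginase, lay at 6.28 to 7.77 in AECII against 1.82 to 5.15 in PASMC, a difference of 3.57 ± 0.51 (adjusted p = 6.27e-08). Gamt, which completes creatine synthesis, was lower, at -3.19 ± 0.20 and Nnmt, a nicotinamide methyltransferase, by -2.32 ± 0.18. Ddc, the decarboxylase of aromatic amino acids, was higher by 3.49 ± 0.33 (another feature, 2.29) and Mthfd1, an enzyme of the folate cycle, by 1.45 ± 0.09. Nos3, the endothelial nitric oxide synthase, was not called, at 3.83 to 5.17 in AECII and 2.24 to 7.15 in PASMC (difference -0.82 ± 0.44, adjusted p = 0.11), and Phgdh, the entry enzyme of serine synthesis, differed by -0.60 ± 0.17 with overlap. In all, 18 of 51 were higher and 13 lower (60.8% called, beside 59.2% of all genes).

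Sugar metabolism leaned to the muscle cultures, with 27 of 42 genes lower in AECII, 4 higher and a median difference of -0.68. Eno2, the neuronal enolase, lay at 7.72 to 8.81 in PASMC and at 3.05 to 5.60 in AECII (difference -3.86 ± 0.30, adjusted p = 3.84e-15). The muscle phosphofructokinase Pfkm differed by -2.14 ± 0.18. Glycogen phosphorylases divided by paralogue: Pygb, the brain form, lay at 9.99 to 10.73 in AECII against 7.25 to 7.86 in PASMC, while Pygl, the liver form, lay at 8.82 to 10.07 in PASMC and at 6.99 to 7.87 in AECII. Akr1b8, an aldo-keto reductase, was higher in AECII by 1.72 ± 0.12.

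Genes of the tricarboxylic acid cycle and its gate were higher for 15 of 38 and lower for 8. With 4 apart (10.5%), the list lay below the 18.7% of all genes. Pdk1, Pdk2 and Pdk4 encode kinases that shut pyruvate dehydrogenase, and they were lower in AECII, at -2.70 ± 0.29, -1.73 ± 0.31 and -1.51 ± 0.32. Pdk1 lay at 6.41 to 8.73 in PASMC and at 4.01 to 5.61 in AECII. Me1, malic enzyme, which makes NADPH, was at 11.92 to 12.29 in AECII against 10.20 to 10.90 in PASMC. Nucleotide enzymes were higher for 18 of 46 and lower for 11 (63% called, beside 59.2% of all genes). The ectoenzymes Entpd3 and Nt5e, which break down extracellular ATP and AMP, lay at 6.20 to 7.75 and 11.07 to 11.78 in AECII against 1.90 to 3.79 and 6.79 to 10.06 in PASMC. Nt5c2, a cytosolic nucleotidase, was higher by 2.71 ± 0.14, and Cda, cytidine deaminase, was lower, at -2.31 ± 0.26.

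**Figure D5:**
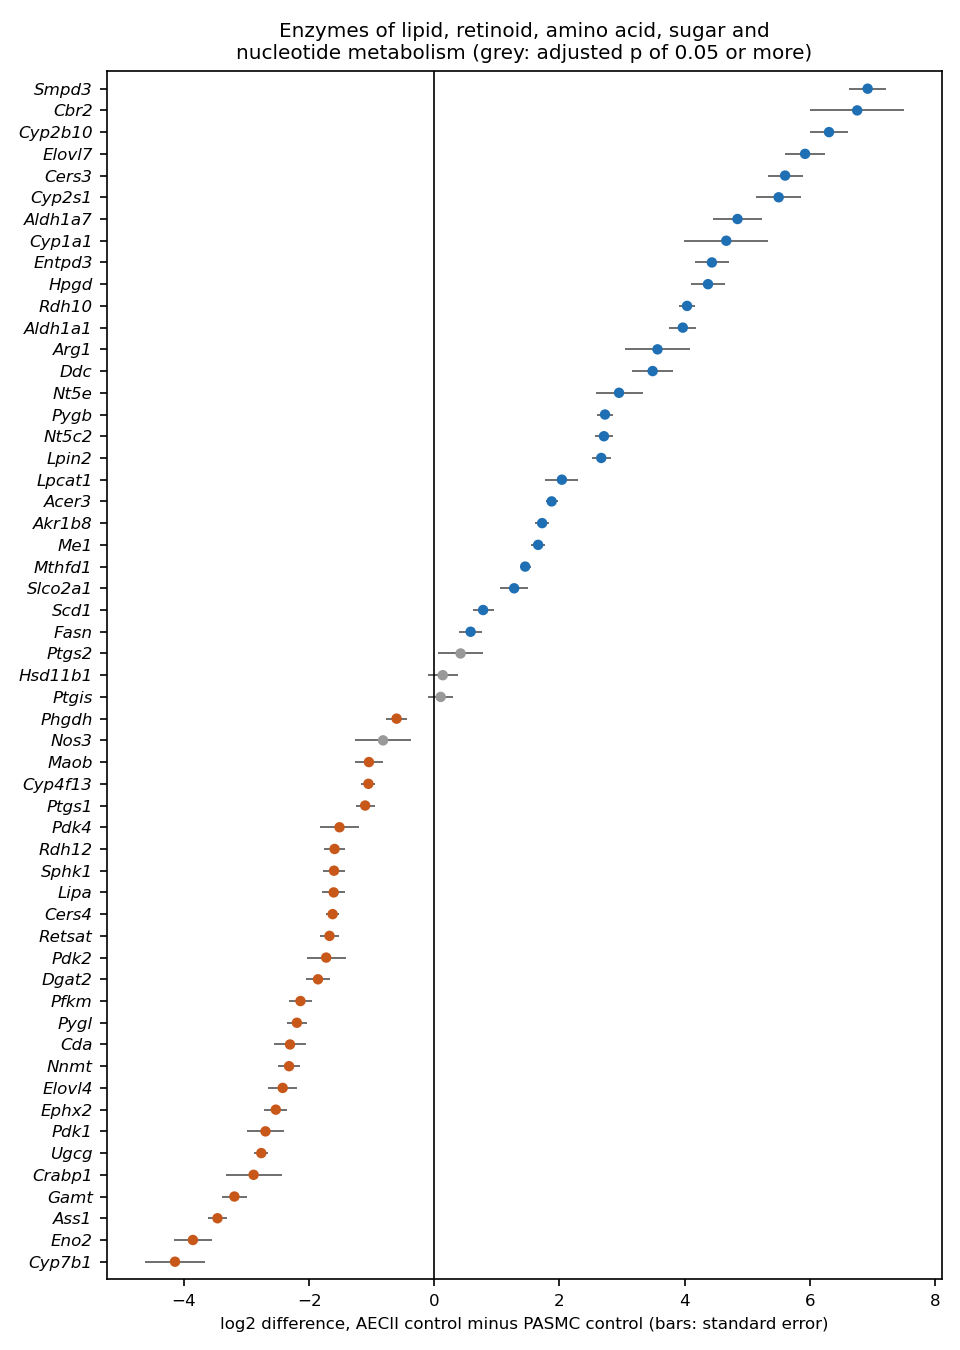
Each point is the log2 difference (AECII minus PASMC, 8 arrays each) of a named metabolic enzyme, with its standard error as a bar; blue is higher in AECII, orange is lower and grey is not called. Smpd3, Cbr2, Cyp2b10, Elovl7 and Cers3 lie farthest right and Cyp7b1, Eno2, Ass1 and Gamt farthest left, while Ptgs2, Ptgis, Hsd11b1 and Nos3 are grey.

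Outside the 43 lists, the genes with the widest separation were of both kinds. Tspan1, a tetraspanin of secretory epithelium, lay at 12.37 to 12.95 in AECII against 1.77 to 4.73 in PASMC. Loxl3, a lysyl oxidase relative, lay at 8.45 to 10.06 in PASMC and at 2.44 to 3.98 in AECII, and Iglon5, a neuronal adhesion molecule, at 8.46 to 10.56 and 3.20 to 4.73. Cdkn2a, a cell cycle inhibitor, lay at 10.19 to 11.30 in PASMC and at 1.69 to 3.87 in AECII; its difference of -7.65 was -4.14 by another feature.

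The same contrast was also read between the arrays of both cell types exposed to extract made from liquid with 0 or 18 mg/ml nicotine. These share no array with the controls but may share mice, and all 48 arrays entered the choice of features and the estimate of spread. Foxa2 differed by 7.47 in the controls, by 7.04 with 0 mg/ml and by 7.66 with 18 mg/ml, and Grem1 by -5.24, -5.45 and -5.24. Shh differed by 4.20, 3.15 and 3.88. Of 2762 genes apart in the control arrays, 2743 were called in the same direction with both extracts. No gene had a cell type difference that changed with extract at an adjusted p under 0.05 in limma. At an unadjusted p under 0.05, 393 genes (2.66%, 0 mg/ml) and 382 genes (2.59%, 18 mg/ml) did, where 5% would pass by chance. The fit took all arrays as independent although mice may be shared, so it cannot show that extract left the difference unchanged.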

How the data were processed

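RNA was labelled with Cy3 after low-input amplification and hybridised to Agilent 1-colour arrays, per the labels' protocols. The deposited values are log2 intensities. The lowest value (1.52 to 1.53) and the median (2.97 to 2.98) nearly match on every array, as after quantile normalisation. The submitters' processing notes name limma; background correction and software versions are not given in the sources used here. Features were named through the platform annotation, updated to RefSeq symbols (GRCm38.p6): 31465 had 1 name and 31511 none. A gene's feature was the one with the highest mean over 48 arrays, and genes with a mean under 2.73 (30th percentile) were left out. Of 1505 list genes, 1441 were on the array; the other 64 were not analysed here.

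Limma 3.58.1 (R 4.3.3) was fitted to all 48 arrays with 1 coefficient per group, two-sided, with Benjamini-Hochberg adjustment over 14775 genes. The scripts were tested on simulated data. Figures used matplotlib 3.10.9. Members and lists were chosen with earlier results of these data known. Named genes were, from each list, up to 3 per direction with the largest difference among genes apart, a set of readouts named by symbol, and 5 per direction outside all lists; others are said to be chosen after their values were seen. Alternatives were other filters, normalisations, probe rules, weights, thresholds, a replicate block, and arrays left out. Deviations of same-numbered control arrays from their group means correlated at -0.033 to 0.145. Over all pairs of groups, treated ones included, such correlations ran from -0.399 to 0.61. The numbers were not used as pairs, and the fit took all 48 arrays as independent.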

Additional observations from a re-analysis of the deposited data

Results flagged for a closer look

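Among the named genes tested, 444 groups of 8 arrays were searched for an array that stood away from the other 7. The distance, as a share of the group's range, had to exceed Dixon's critical value, and 39 groups held such an array (8.78%). About 1 group in 20 would by chance if groups were independent and values normal. Neither was checked, and genes were named partly for not overlapping, so the excess was not tested. PASMC array 2 accounted for 12 of them and AECII array 3 for 6.

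In PASMC array 2 the genes Thy1 (11.81), Fap (6.12), Spp1 (12.42), Ltbp2 (13.26), Il4ra (8.15), Plxna3 (4.25), Ptgis (11.59) and Scd1 (7.48) were lowest of the 8, while Igfbp2 (10.02), Il18r1 (5.25), Ghr (10.68) and Acer3 (6.85) were highest. The nearest other PASMC array stood at 12.81 for Thy1 and at 9.22 for Fap. This array also had the highest Krt18 of the 8 PASMC arrays, at 12.09, and its part in these values was not tested.

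In AECII array 3 the epithelial genes Sftpd (11.76), Hopx (9.30), Foxa1 (10.41) and Gprc5a (13.91) were lowest, and Sox10 (4.64) and Hoxb5 (6.13) were highest. AECII array 6 was highest for Cldn7 (12.76), Krt7 (14.23) and Cxcl10 (9.21) and lowest for Dkk2 (2.62). AECII array 7 was highest for Rspo1 (9.50) and Il17re (9.04) and lowest for Il6 (4.50). AECII array 8 was highest for Epha2 (11.61) and Cyp7b1 (5.38). AECII array 1 was highest for Gpx3 (8.14) and lowest for Slc1a6 (2.03) and Maob (3.17), and AECII array 2 was lowest for Wnt5a (6.51).

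PASMC array 3 was highest for Apln (9.52) and Cxcl16 (6.56) and lowest for Abcb1a (6.77). PASMC array 8, which had the highest Sftpc and Vwf of the PASMC arrays, was highest for Cxcl17 (3.69) and Lipa (9.56) and lowest for Fgf7 (10.54). PASMC array 7 was lowest for Fgfr2 (3.47), and PASMC array 5 was highest for Entpd3 (3.80).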

How the results depend on the processing

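No named gene that was called in the main run or in an alternative run changed direction between them. Named genes called in neither run were not checked for direction. The counts of genes higher and lower in AECII, 4124 and 4620, became 1018 and 1174 when the difference was tested against 1 on the log2 scale, and 18 named genes lost their call there (Vegfa, Sox9, Srf, Bmp3, Sdc1, Slco2a1, Ptgs1, Cyp4f13, Maob, Pdk2, Pdk4, Nr3c1, Fgfr2, Wnt5a, Cxcl12, Fasn, Scd1 and Phgdh). The counts of genes on in 1 culture and off in the other, 93 and 29, became 314 and 203 with levels above 5 and below 5, 23 and 4 with levels above 7 and below 3.5, and 173 and 48 without PASMC arrays 2, 6 and 8, an alternative chosen after seeing the data. With a replicate block the counts were 4180 and 4662; replicate numbers are not known to pair the arrays, and the 222 named genes tested kept their calls. Leaving out 1 array at a time gave 3996 to 4107 genes higher, 4451 to 4634 lower, 1297 to 1368 apart and higher, 1469 to 1700 apart and lower, 93 to 116 and 29 to 33 on in 1 culture only, and 2745 to 3031 genes apart that were also called with both extracts. Single arrays moved Krt8 to 9.02 (without PASMC array 2) and Sftpc to 9.21 and 9.35 (without PASMC arrays 6 and 8). C3 was called without PASMC array 1 or 3 and with array weights, while without PASMC arrays 2, 6 and 8 its difference was 0.24; Nos3 and Ptgs2 were called without PASMC arrays 2, 6 and 8, and Nos3 also without PASMC array 2, with array weights and with the mean of all probes. The mean of all probes moved 26 of 222 named genes by over 1.5-fold, among them Sftpd to 7.70, Scgb1a1 to 12.58, Mbp to 2.19, Gm10639 to 6.38, Cers3 to 2.94, Nr1i3 to 1.38, Notch1 to 1.17, Dcc to 1.04, Cxcl10 to 1.33, Piezo2 to -1.22, Tpsb2 to 1.05, Shh to 3.51, Nkx2-1 to 5.82 and Srf to 0.47, and Nr3c1 lost its call, as it did without PASMC array 3; Fgfr2 lost its call without PASMC array 7. For each of these the cause was not tested. Dim features limit every difference against a level near 3 or below.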
